A study of Drosophila melanogaster with 4 samples.

Results

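Small RNAs of 20 to 24 nt that start with U were examined in 4 libraries of Argonaute-bound small RNA from whole male flies. The members are all distinct sequences of that length and first base in the deposited lists, each counted once per library, and they number 1389 of 7181 distinct sequences of any length or first base. Of these, 471 were listed in all 4 libraries and held 99.97% of the members' reads, while 476 were listed in only 1 library. Sequences of the same lengths with other first bases numbered 1161 with A, 760 with C and 698 with G.

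The groups, each with 1 library, were Ago2 at 30 d, Ago1 at 30 d, Ago2 at 3 d and Ago1 at 3 d. All flies carried a FLAG-HA tag on Ago2 and were reared at 25 °C, so the Ago1 libraries too come from tagged flies. Ago2 was recovered through its FLAG tag on M2 beads and Ago1 with an antibody against the protein itself, so the pull-down method and the protein compared cannot be told apart. The libraries held 34554191, 26451651, 13491805 and 26636441 listed reads in the same order, and 820, 967, 598 and 1016 of the members. With 1 library per group there is no replicate error and no test. Intervals (95%) cover counting error only, and reads without molecular identifiers are not independent molecules. How much RNA each protein held was not measured, and every ratio therefore compares shares of listed reads, given as reads per 1000000 listed reads (RPM).

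Flies sort small RNA duplexes between Ago1, which takes up the majority of miRNA guides and represses mRNAs that pair with the seed, and Ago2, which mainly carries siRNAs and cleaves well-paired targets. Sorting is known to depend on how well the centre of the duplex pairs and on the first base of the strand, with a U favouring Ago1 and a C favouring Ago2. Because the seed is counted from the first base, a strand that starts even slightly downstream of another carries a different seed and can recognise other mRNAs.

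The sequences below carry the results. Forms that share their first 20 nt were joined into a start group, and the form with the most reads stands for it. Sequences are written with T in place of U, and capitals mark the seed, bases 2 to 8. A miRNA name with "start +1" or "start -1" is a group that begins 1 nt downstream or 1 nt upstream of the usual mature start. The first set holds start groups that took a larger share of the Ago2 reads, and beside 3 of them a close relative that was not at least 2-fold higher there. Names were assigned from background knowledge of fly miRNAs, and the chromosome of the gene of that name is from the annotation BDGP6, which is a later build than that of the files.
miR-956-3p start +1 (3L): tTCGAGACcactctaatccatt
miR-956-3p (3L): tTTCGAGAccactctaatccatt
miR-927-5p (X): tTTAGAATtcctacgctttacc
miR-125-5p (2L): tCCCTGAGaccctaacttgtg
miR-995-3p (3R): tAGCACCAcatgattcggctt
miR-998-3p (3R): tAGCACCAtgagattcagctc
miR-10-5p start -1 (3R): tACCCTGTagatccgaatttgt
miR-993-5p (3R): tACCCTGTagttccgggctttt
miR-263a-5p start +2 (2L): tGGCACTGgaagaattcacggg
The 2 starts of miR-956-3p differ by 1 base at the 5′ end and so have different seeds. miR-995-3p and miR-998-3p share a seed, as do miR-10-5p start -1 and miR-993-5p.

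The second set holds groups at the Ago1 end of the range, or groups whose mean length differed by 1 nt or more between the proteins at 30 d.
bantam-3p (3L): tGAGATCAttttgaaagctgatt
miR-133-3p (2L): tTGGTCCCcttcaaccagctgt
miR-274-5p start +1 (3L): tTTGTGACcgacactaacgggt
miR-12-5p (X): tGAGTATTacatcaggtact
miR-1010-3p (3R): tTTCACCTatcgttccatttg

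Reads of 20 to 24 nt starting with U made up 26.7% of listed reads with Ago2 and 73.2% with Ago1 at 30 d, and 35.0% with Ago2 and 74.95% with Ago1 at 3 d. In RPM these were 267419 with Ago2 and 732180 with Ago1 at 30 d, and 349517 with Ago2 and 749546 with Ago1 at 3 d. Both Ago1 libraries lay well above both Ago2 libraries, and the counting intervals were at most 0.0254 percentage points to each side. A single strand without a U start was very abundant with Ago2. This was miR-263a-5p, which starts with A and is known to protect sensory bristles from cell death and which held 508609 RPM with Ago2 and 35968 RPM with Ago1 at 30 d, and 470224 RPM with Ago2 and 49531 RPM with Ago1 at 3 d. With that start group left out of the totals the U share was 54.4% with Ago2 and 75.9% with Ago1 at 30 d, and 66.0% with Ago2 and 78.9% with Ago1 at 3 d. The Ago2 libraries remained below the Ago1 libraries, by a smaller margin.

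**Figure D1:**
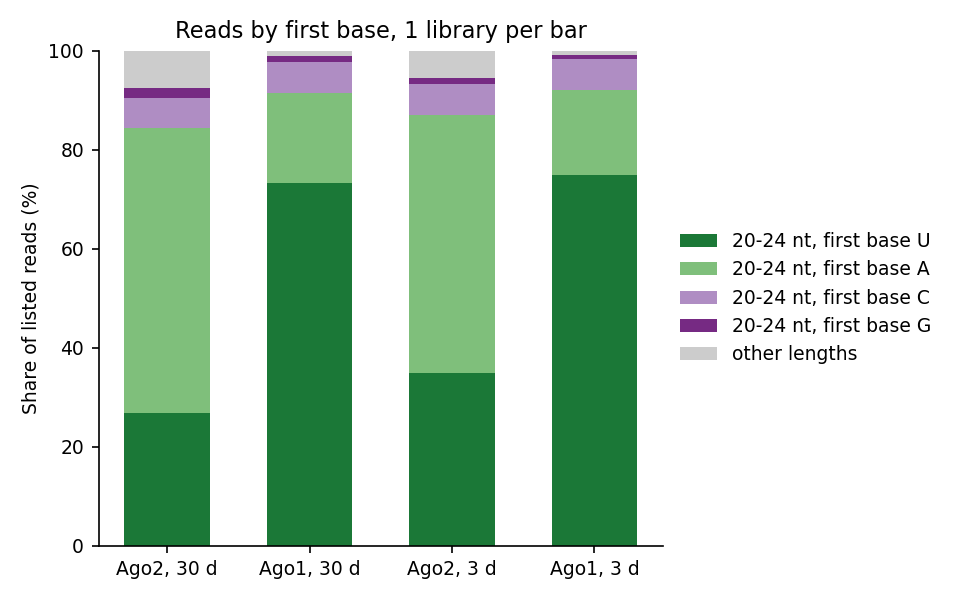
Share of listed reads (%) by first base among reads of 20 to 24 nt, with all other lengths in grey, 1 library per bar. Reads starting with U fill 26.7% and 35.0% of the Ago2 bars, against 73.2% and 74.95% of the Ago1 bars, where reads starting with A are fewer.

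Few start groups supplied most U-starting reads. The 10 most abundant groups held 97.0% of the U-starting reads with Ago2 and 91.8% with Ago1 at 30 d, and 98.2% with Ago2 and 91.9% with Ago1 at 3 d. In both Ago2 libraries miR-956-3p start +1 came first, with 45.6% of U-starting reads at 30 d and 53.2% at 3 d, followed by miR-184-3p, which acts in female germline development, with 56160.3 RPM at 30 d and 62372 RPM at 3 d. In the Ago1 libraries the reads were spread more evenly over miR-8-3p, miR-956-3p, miR-184-3p, miR-277-3p and bantam-3p. miR-8-3p, known for growth control through the fat body, led at 30 d with 161413 RPM. At 3 d miR-184-3p with 137547 RPM, miR-956-3p with 136748 RPM and miR-8-3p with 129609 RPM stood close together. bantam-3p, which promotes growth and blocks cell death, ranked among the first 5 with Ago1 at both ages and was not among the first 10 with Ago2. Without miR-956-3p start +1, U-starting reads would make up 16.6% of the Ago2 reads and 72.0% of the Ago1 reads at 30 d, and 20.1% of the Ago2 reads and 74.0% of the Ago1 reads at 3 d.

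U-starting reads bound to Ago2 were mostly 22 nt long, while those bound to Ago1 were split between 22 and 23 nt. At 22 nt lay 74.0% of U-starting reads with Ago2 and 43.2% with Ago1 at 30 d, and 77.3% with Ago2 and 43.8% with Ago1 at 3 d. At 23 nt lay 14.5% with Ago2 and 41.9% with Ago1 at 30 d, and 16.3% with Ago2 and 44.1% with Ago1 at 3 d. Reads of 20 nt made up 1.29% with Ago2 and 4.94% with Ago1 at 30 d, and 0.495% with Ago2 and 4.22% with Ago1 at 3 d, and those of 24 nt less than that in every library, at most 0.976%. The mean length was 22.02 nt with Ago2 and 22.25 nt with Ago1 at 30 d, and 22.09 nt with Ago2 and 22.31 nt with Ago1 at 3 d. The contrast remained when all 3 starts of miR-956-3p were left out. The share at 22 nt was then 68.4% with Ago2 and 42.7% with Ago1 at 30 d. At 3 d it was 76.9% with Ago2 and 44.3% with Ago1. The most abundant group left with Ago2 was miR-184-3p, itself mostly 22 nt long with both proteins. Its 22 nt form made up 93.2% with Ago2 and 87.2% with Ago1 at 30 d. At 3 d this form made up 96.9% with Ago2 and 89.7% with Ago1. By these counts, the share at 22 nt stays higher with Ago2 at both ages without miR-184-3p as well, but by a smaller margin. Reads of 22 nt would then no longer be most of the U-starting reads with Ago2. The edges of the length window cut off few reads: of U-starting reads of any length, 0.791% with Ago2 and 0.491% with Ago1 at 30 d, and 0.107% with Ago2 and 0.209% with Ago1 at 3 d, were 19 nt long. Reads of 25 nt made up at most 0.109% in any library.

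**Figure D2:**
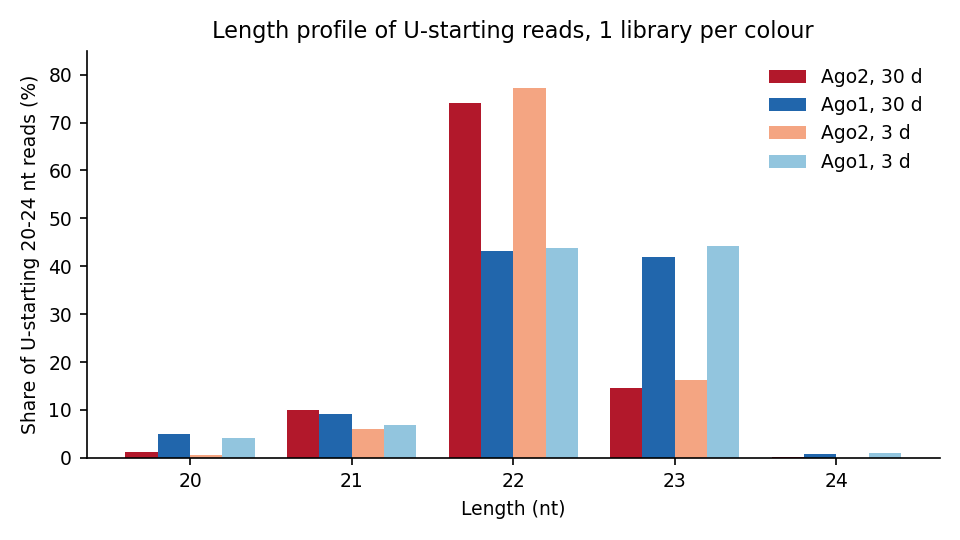
Share (%) of U-starting reads of 20 to 24 nt at each length (nt), 1 library per colour. Both Ago2 libraries peak at 22 nt with 74.0% and 77.3%, while both Ago1 libraries have nearly equal bars at 22 nt (43.2% and 43.8%) and 23 nt (41.9% and 44.1%).

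Within start groups the mean length was mostly close between the proteins. Among groups with at least 100 reads in both libraries compared, the median difference in mean length, Ago2 minus Ago1, was 0.04 nt over 82 groups at 30 d and 0.02 nt over 68 groups at 3 d. At 30 d 14 groups were at least 0.25 nt longer with Ago2 and 8 at least 0.25 nt shorter, against 16.3% longer and 15.7% shorter among start groups of any first base. At 3 d the counts were again 14 and 8, against 16.3% and 17.6% among all start groups.

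miR-1010-3p, a mirtron strand that splicing and debranching release in place of Drosha, had the largest lengthening with Ago2 at 30 d. Its 24 nt form made up 77.1% of its reads with Ago2 and 20.1% with Ago1 at 30 d, and 82.7% with Ago2 and 45.1% with Ago1 at 3 d. The difference in mean length was 1.57 nt at 30 d and 0.996 nt at 3 d. For miR-12-5p the 23 nt form made up 50.8% with Ago2 and 25.3% with Ago1 at 30 d, and 59.9% with Ago2 and 31.0% with Ago1 at 3 d, and its mean length was 1.04 nt and 1.08 nt longer with Ago2. For miR-34-5p, known from ageing of the fly brain, the 21 nt form made up 32.4% with Ago2 and 72.6% with Ago1 at 30 d, and 24.5% with Ago2 and 39.2% with Ago1 at 3 d. In all 3 miRNAs the longer forms took a larger part with Ago2 than with Ago1 at both ages.

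Shorter forms stood out with Ago2 in miR-970-3p and miR-125-5p. The 20 nt form of miR-970-3p made up 51.2% with Ago2 and 7.95% with Ago1 at 30 d, and 44.0% with Ago2 and 6.38% with Ago1 at 3 d. The 24 nt form of miR-125-5p made up 0.506% with Ago2 and 18.5% with Ago1 at 30 d, and 0.719% with Ago2 and 14.4% with Ago1 at 3 d. Its 21 nt form made up 64.3% with Ago2 and 21.5% with Ago1 at 30 d, and 39.5% with Ago2 and 19.2% with Ago1 at 3 d. A start group with no name, ranked 38 by mean abundance, was shorter by 1.30 nt at 30 d and by 1.64 nt at 3 d with Ago2.

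The Ago2 over Ago1 ratio of U-starting sequences was low and widely spread at both ages. Log2 ratios of (RPM + 1) were taken for distinct sequences that averaged 10 RPM or more in the 2 libraries compared, which 204 of the 1389 members passed at 30 d and 213 at 3 d. A member can pass through the library in which it is high, and those passing held at least 99.8% of U-starting reads in either library. At 30 d 23 were higher with Ago2 by at least 2-fold and 165 were lower by as much, that is 11.3% and 80.9%, against 28.9% higher and 57.2% lower among all listed sequences. At 3 d 25 were higher by at least 2-fold and 169 were lower by as much, against 24.8% and 62.9% among all listed sequences.

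The median log2 ratio of the U-starting sequences was -4.11 at 30 d, with quartiles of -5.39 and -2.20, and -4.25 at 3 d, with quartiles of -5.52 and -1.52. Over all listed sequences the medians were -1.94 and -2.84. The other first bases followed in the order A, C and G: medians at 30 d were -2.48 over 83 sequences starting with A, 0.83 over 87 starting with C and 2.28 over 50 starting with G. At 3 d they were -3.30, 0.44 and 1.33 over 100, 85 and 45 sequences. The middle of the U distribution thus lay below those of the other bases at both ages, and its upper end overlapped all of them. Leaving the 5 most abundant sequences out of the totals changed the ratios and which sequences passed. It gave 46 higher and 177 lower at 30 d, and 51 higher and 181 lower at 3 d. The medians at 30 d and 3 d were then -2.77 and -3.02 for the members, and -0.26 and -0.80 for all listed sequences. Shares of all listed sequences past 2-fold under that scaling are not given here, so these counts stand without a background.

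**Figure D3:**
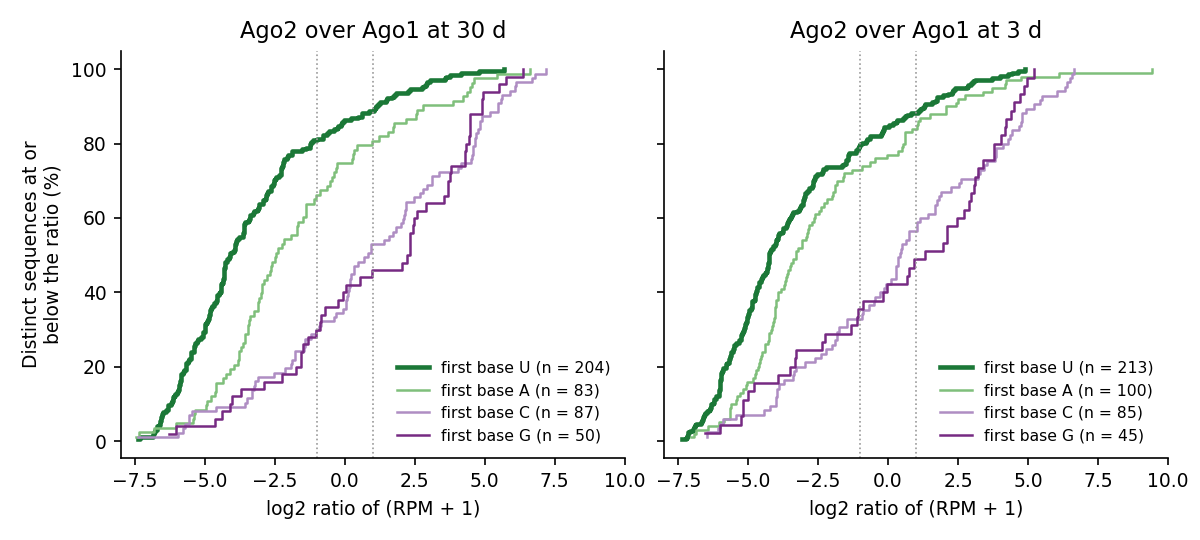
Cumulative share (%) of distinct sequences of 20 to 24 nt by their log2 ratio of (RPM + 1), Ago2 over Ago1, at 30 d (left) and 3 d (right), 1 line per first base, with dotted lines at 2-fold. The U line lies farthest to the left at both ages, with medians of -4.11 and -4.25, and reaches past 2-fold higher for 23 and 25 sequences.

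Counted as start groups with a mean of at least 100 RPM, the picture was the same at both ages: 7 of 52 were higher with Ago2 by at least 2-fold and 43 were lower by as much. The corresponding shares among start groups of any first base were 31.7% higher and 61.5% lower at 30 d, and 28.4% and 60.6% at 3 d. The medians of the U groups were -4.09 at 30 d and -4.44 at 3 d.

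At the Ago1 end, bantam-3p held 706 RPM with Ago2 and 65171 RPM with Ago1 at 30 d, and 618 RPM with Ago2 and 85629 RPM with Ago1 at 3 d. Its log2 ratios of -6.53 and -7.11 came from an abundant strand, with at least 8338 reads in every library. miR-133-3p, a muscle miRNA, held 19.4 RPM with Ago2 and 1450.0 RPM with Ago1 at 30 d, and 16.5 RPM with Ago2 and 2398 RPM with Ago1 at 3 d, with log2 ratios of -6.15 and -7.10. miR-274-5p start +1 had the lowest ratio at 30 d, -7.26, with 8.25 RPM with Ago2 and 1414 RPM with Ago1. At 3 d it held 9.04 RPM with Ago2 and 862 RPM with Ago1. Also among the 10 lowest at both ages, besides these 3, were miR-31a-5p, miR-281-3p, miR-311-3p and miR-987-5p.

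By function, most named guide strands with a U start lay on the Ago1 side, as did the U-start groups as a whole, of which 73.9% at 30 d and 71.6% at 3 d were at least 2-fold lower with Ago2 among those with a mean of 10 RPM or more. All 7 measured strands of the nervous system list, among them miR-210-3p of photoreceptors and miR-276a-3p, which acts in olfactory memory, were at least 2-fold lower with Ago2 at both ages, with a median of -3.89 at 30 d and -4.47 at 3 d. Both muscle strands, miR-1-3p and miR-133-3p, were lower, as were all 3 measured strands of the K box seed family, of the miR-310 cluster, of the group sharing the seed of miR-279 and of the mirtrons. Of the growth, survival and metabolism list 6 of 7 were at least 2-fold lower at 30 d and 7 of 7 at 3 d, the strand nearest to equal shares being miR-184-3p at -0.87 and -1.14. With the 5 most abundant sequences left out of the totals miR-184-3p turned to slightly higher with Ago2 at both ages, while the other directions held under every scaling tried. Of the let-7 complex, whose miRNAs time the change from juvenile to adult, let-7-5p was lower at -3.42 and -4.61, and miR-125-5p from the same precursor transcript was higher at 2.05 and 1.25.

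Only a small set of U-start groups was held more by Ago2. Of 91 groups that averaged 10 RPM or more in the 4 libraries, 11 (12.1%) were at least 2-fold higher with Ago2 at both ages, against 25.2% of start groups of any first base. Of groups starting with A, C and G, 9 of 51, 22 of 44 and 14 of 36 met the same rule. In the other direction 64 of the 91 were at least 2-fold lower at both ages, against 53.2% of all start groups. Few as they were, the 11 groups held 55.3% of U-starting reads with Ago2 and 6.59% with Ago1 at 30 d, and 57.9% with Ago2 and 5.28% with Ago1 at 3 d. Most of that weight came from miR-956-3p start +1, and the larger share with Ago2 follows from the rule that chose the groups. All 11 also met the rule with TMM scaling, which adds others and gives 19.

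miR-956-3p start +1 held 121926 RPM with Ago2 and 44232 RPM with Ago1 at 30 d, and 185889 RPM with Ago2 and 35853 RPM with Ago1 at 3 d. Its log2 ratio was 1.46 at 30 d and 2.37 at 3 d. The start 1 nt upstream, miR-956-3p, held 32271 RPM with Ago2 and 150306 RPM with Ago1 at 30 d, and 57957 RPM with Ago2 and 136748 RPM with Ago1 at 3 d, with ratios of -2.22 and -1.24. Of the reads of both starts the upstream one took 20.9% with Ago2 and 77.3% with Ago1 at 30 d, and 23.8% with Ago2 and 79.2% with Ago1 at 3 d. Both proteins thus held strands from the same arm with a U first base, in opposite proportions of the 2 seeds printed above.

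miR-927-5p held 9907 RPM with Ago2 and 904 RPM with Ago1 at 30 d, and 6749.95 RPM with Ago2 and 1014 RPM with Ago1 at 3 d, with log2 ratios of 3.45 (interval 3.43 to 3.47) and 2.73 (2.72 to 2.76). miR-125-5p held 7607 RPM with Ago2 and 1840 RPM with Ago1 at 30 d, and 3845 RPM with Ago2 and 1612 RPM with Ago1 at 3 d. miR-995-3p held 5569.9 RPM with Ago2 and 1068 RPM with Ago1 at 30 d, and 4155 RPM with Ago2 and 880 RPM with Ago1 at 3 d, with ratios of 2.38 and 2.24. These 3 were chosen for higher values with Ago2 at each age, so that order is set by the rule.

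Among groups of at least 100 RPM the largest ratios belonged to shifted starts of strands that normally start with A. miR-263a-5p start +2 held 1226 RPM with Ago2 and 29.7 RPM with Ago1 at 30 d, and 586 RPM with Ago2 and 34.8 RPM with Ago1 at 3 d, with log2 ratios of 5.32 (5.27 to 5.47) and 4.04 (3.98 to 4.17). It made up at most 0.241% of the reads at the start printed above and the main A start together, in any library. miR-10-5p start -1, from the Hox gene cluster, held 1096 RPM with Ago2 and 62.8 RPM with Ago1 at 30 d, and 715 RPM with Ago2 and 48.1 RPM with Ago1 at 3 d, with ratios of 4.10 and 3.87. The main A starts of both strands were also higher with Ago2, at 3.82 and 3.25 for miR-263a-5p and at 1.09 and 0.96 for miR-10-5p.

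The remaining exceptions were less abundant. miR-2b-2-5p, whose name is less sure than the others, held 248 RPM with Ago2 and 59.1 RPM with Ago1 at 30 d, and 124 RPM with Ago2 and 55.3 RPM with Ago1 at 3 d. miR-991-3p held 47.8 RPM with Ago2 and 9.19 RPM with Ago1 at 30 d, and 91.2 RPM with Ago2 and 6.16 RPM with Ago1 at 3 d. The other 3 have no name here and held between 40.2 and 145 RPM with Ago2. At the boundary of the rule, the unnamed group ranked 59 had log2 ratios of 1.07 at both ages, while miR-956-3p start +2 at 0.71 and 1.18 and miR-375-3p start +1 at 1.01 and 0.86 fell just outside. Counted as distinct sequences, 19 of the 194 members that passed 10 RPM at both ages were at least 2-fold higher at both, against 24.4% of all listed sequences, and 18 of the 19 belong to the 11 groups.

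**Figure D4:**
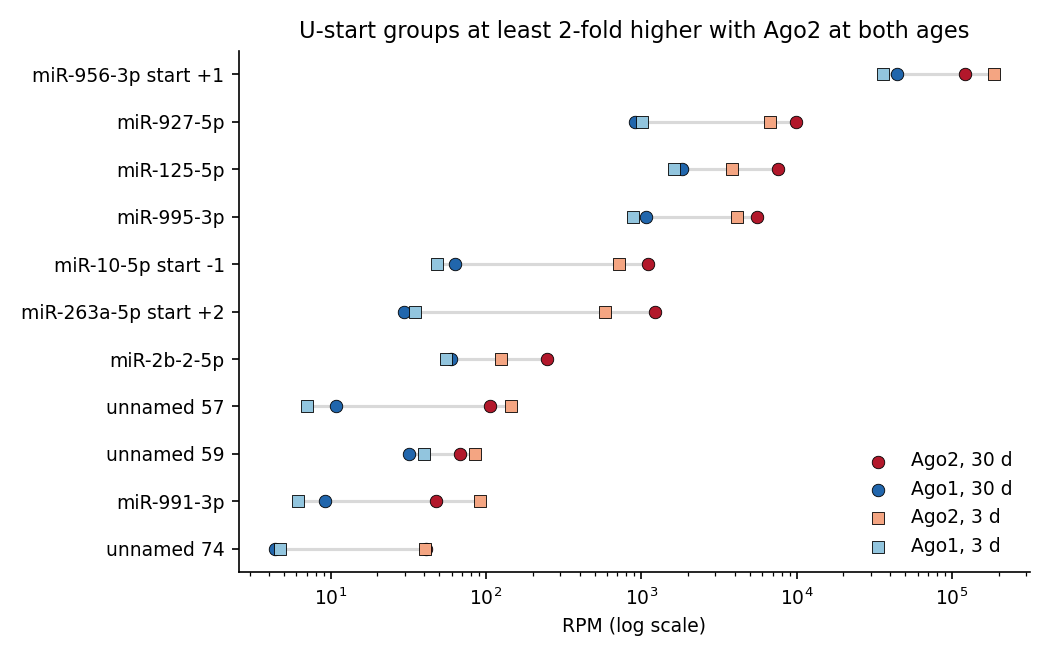
RPM (log scale) of the 11 U-start groups at least 2-fold higher with Ago2 at both ages, 1 point per library. Ago2 lies above Ago1 at each age because the groups were chosen by that rule. In every group both Ago2 points lie to the right of both Ago1 points, from 121926 and 185889 against 44232 and 35853 RPM for miR-956-3p start +1 down to 41.4 and 40.2 against 4.39 and 4.73 RPM in the lowest group.

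Strands with the same seed did not all lie past 2-fold on the same side. miR-10-5p start -1 and miR-993-5p share bases 2 to 8, and miR-993-5p had log2 ratios of -5.16 at 30 d and -5.07 at 3 d, against 4.10 and 3.87. miR-995-3p, at 2.38 and 2.24, shares its seed with miR-998-3p, at -0.02 and 0.49. miR-12-5p at -3.67 and -3.84 and miR-960-5p at -0.27 and 0.48 are a further pair. Both miR-998-3p and miR-960-5p were within 2-fold at both ages, so these pairs did not lie past 2-fold on opposite sides. In the other 7 sets of start groups that share a seed, all members were at least 2-fold lower with Ago2 at both ages, among them the 3 measured strands of the miR-9 family, between -5.44 and -3.31 at 30 d, beside 64 of all 91 U-start groups.

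Starts close to a more abundant start were a regular feature of the set. Of the 91 groups, 20 lay within 3 nt of a more abundant start, which began with U in 9, with C in 5, with A in 3 and with G in 3. They were set by abundance and not by the usual mature start. The usual starts miR-956-3p and miR-1-3p are thus among them, while miR-956-3p start +1 and miR-274-5p start +1 are not. The median log2 ratio of these 20 was -1.77 at 30 d and -1.15 at 3 d, against -3.67 and -4.01 for the other 71. Set against the more abundant start beside it, the less abundant start took a larger share with Ago2 at both ages in 7 and a smaller share in 11. miR-31b-5p start -2 made up 93.8% of the 2 starts with Ago2 and 7.83% with Ago1 at 30 d, and 88.1% with Ago2 and 10.6% with Ago1 at 3 d. miR-210-3p, which begins with U 1 nt downstream of a start with C, made up 87.4% with Ago2 and 13.0% with Ago1 at 30 d, and 76.5% with Ago2 and 20.2% with Ago1 at 3 d. miR-375-3p start +1 made up 14.6% with Ago2 and 0.735% with Ago1 at 30 d, and 16.5% with Ago2 and 0.789% with Ago1 at 3 d. Of the 11 in the other direction, miR-1-3p made up 7.69% with Ago2 and 49.4% with Ago1 at 30 d, and 15.2% and 32.1% at 3 d. The unnamed group ranked 78 made up 2.84% with Ago2 and 74.7% with Ago1 at 30 d, and 2.59% and 74.9% at 3 d. Such shares need no scaling between libraries.

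By sequence, the 22 groups with U as second base had medians of -1.80 at 30 d and -1.88 at 3 d, against medians between -3.89 and -3.06 at 30 d and between -4.37 and -3.83 at 3 d for the other second bases. The number of G or C among bases 2 to 8 showed Pearson's r of 0.13 at 30 d and 0.10 at 3 d with the log2 ratio over the 91 groups, which share their libraries. The relation was not a straight line: the 37 groups with 3 such bases had medians of -4.21 at 30 d and -4.29 at 3 d and held 0 of the 11 exceptions, while the 12 groups with 5 had medians of -0.18 and -0.66 and held 3. At the low end, the 5 groups with 1 had medians of -0.98 and 0.24 and held 2, and the 18 with 2 had -2.80 and -3.57 and held 1. The 16 groups with 4 had medians of -3.19 and -3.70 and held 4, and the 3 with 6 had 1.68 and 0.25 and held 1. With log2 mean RPM Spearman's rho was -0.27 and -0.31. These are descriptions across start groups and not across samples.

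With age, the total share of U-starting reads was lower at 30 d than at 3 d with both proteins, at 26.7% against 35.0% with Ago2 and 73.2% against 74.95% with Ago1. With Ago2, 119 distinct members averaged 10 RPM or more in the 2 ages, of which 23 were higher at 30 d by at least 2-fold and 9 were lower by as much, against 27.6% and 7.03% of all listed sequences. The median log2 ratio was 0.37, near the 0.46 of all sequences. TMM scaling gave 19 higher and 16 lower, with a median of 0.18 for the members and 0.20 for all sequences. Leaving the 5 most abundant sequences out of the totals gave 24 higher and 28 lower, with medians of 0.05 and 0.15. The balance of these counts moved with the scaling, and shares of all sequences past 2-fold under these scalings are not given here. With Ago1, 228 members passed, with 22 higher by at least 2-fold and 21 lower, against 11.3% and 13.4% of all listed sequences, with a median of -0.01. The lower total with Ago2 stood beside lower values of both main miR-956-3p starts, with log2 ratios of -0.61 for start +1 and -0.84 for the upstream start. Of listed reads with Ago2, start +1 made up 12.2% at 30 d and 18.6% at 3 d. The upstream start made up 3.23% and 5.80%. Apart from these starts, the U-starting reads together did not have a lower share with Ago2 at 30 d. Why the miR-956-3p starts were lower was not tested.

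Among 26 start groups with a mean of at least 100 RPM with Ago2, 5 were higher at 30 d by at least 2-fold and 2 were lower by as much, against 15.1% and 9.59% of groups of any first base. The same 26 groups gave 1 higher, miR-14-3p, and 4 lower under TMM, the median of ratios or totals without the 5 most abundant sequences. miR-14-3p, which limits cell death and fat storage, led with 738 RPM with Ago2 at 30 d and 261 RPM at 3 d, and its log2 ratio was 1.50 (1.45 to 1.55). With Ago1 it held 25587 RPM at 30 d and 27341 RPM at 3 d, and the ratio was -0.10. miR-210-3p followed at 1.22, miR-970-3p at 1.19, miR-263a-5p start +2 at 1.06 and let-7-5p at 1.02. miR-960-5p was lowest, with 45.3 RPM at 30 d and 158 RPM at 3 d with Ago2, and miR-986-5p was at -1.18. With Ago1 the same threshold left 53 groups, with 1 higher by at least 2-fold and 0 lower, against 3.03% and 5.05%. That group, the unnamed one ranked 38, held 885 RPM at 30 d and 319.6 RPM at 3 d with Ago1. The next with Ago1 were miR-996-3p at 0.99, miR-278-3p at 0.87, miR-1-3p at 0.85 and miR-34-5p at 0.75, and the lowest were miR-2a-3p and miR-982-5p at -0.82 each and miR-276a-3p at -0.81.

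The Ago2 over Ago1 log2 ratio itself was set at 30 d against 3 d for 51 groups with a mean of at least 100 RPM. It was at least 1 higher at 30 d in 9 and at least 1 lower in 2, against 17.1% and 7.62% of start groups of any first base, with a median difference of 0.27. The median of ratios gave 5 higher and 5 lower. The largest were miR-932-5p at 1.67 (1.39 to 1.94), miR-14-3p at 1.59 (1.54 to 1.65), miR-276a-3p at 1.44 and miR-970-3p at 1.40. The lowest were miR-986-5p at -1.46 and miR-312-3p at -1.08. The median difference was 0.13 with TMM and -0.02 with the median of ratios, so its sign rests on the scaling.

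**Figure D5:**
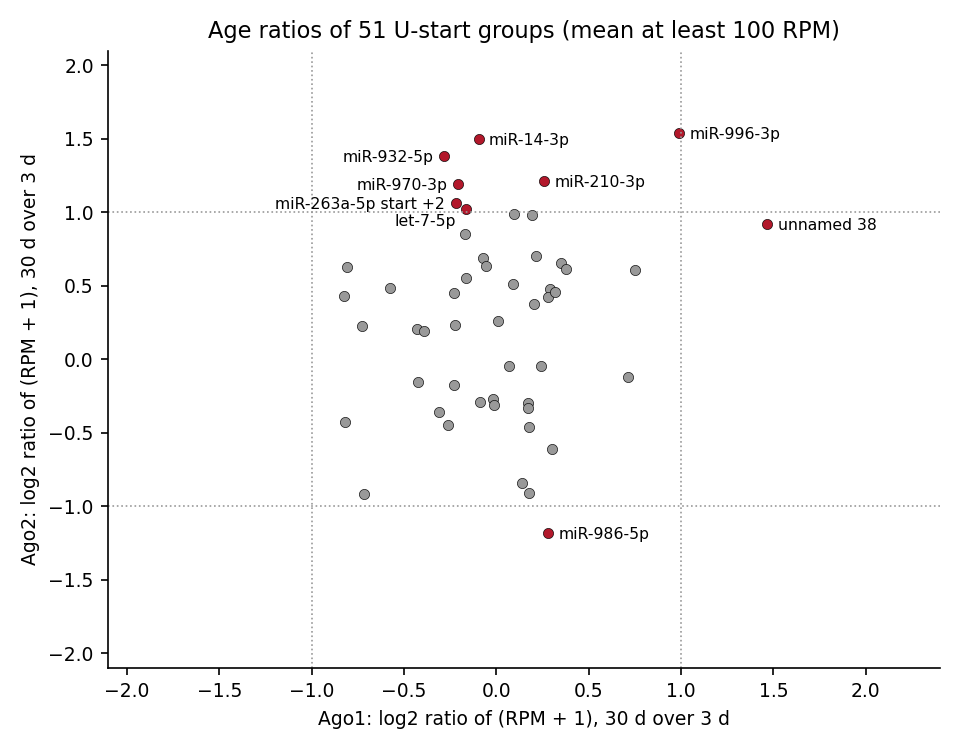
Log2 ratio of (RPM + 1), 30 d over 3 d, of 51 U-start groups with a mean of at least 100 RPM, with Ago2 on the vertical and Ago1 on the horizontal axis, dotted lines at 2-fold and red points past 2-fold with either protein. Most points lie within 2-fold with both proteins, and points past 2-fold with Ago2, such as miR-14-3p at 1.50, mostly lie near 0 with Ago1, apart from miR-996-3p at 1.54 with Ago2 and 0.99 with Ago1.

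Within start groups, forms were on the whole slightly shorter at 30 d. With Ago2 the median difference in mean length was -0.03 nt over 72 groups, with 1 at least 0.25 nt longer and 4 shorter, against 0.543% and 4.89% of all start groups. With Ago1 it was -0.04 nt over 118 groups, with 3 longer and 17 shorter, against 2.01% and 11.2% of all start groups. Among groups with a mean of at least 100 RPM the largest shortening with Ago1 was in miR-34-5p, whose 21 nt form made up 72.6% at 30 d and 39.2% at 3 d and whose 24 nt form made up 3.82% at 30 d and 19.4% at 3 d. The mean length was 0.79 nt less at 30 d for miR-34-5p, 0.75 nt less for miR-1010-3p and 0.54 nt less for miR-317-3p.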

How the data were processed

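The authors deposited 1 list per library of distinct sequences with raw read counts; Bowtie, CASAVA 1.8.2 and the build dm3 are named in the submitters' processing notes, and their further steps are not stated in those notes. Sequences of 16 to 44 nt are listed. A sequence listed more than once with an identical count was counted once. RPM are counts over all listed reads of a library, with a pseudocount of 1 RPM in log2 ratios and a minimum mean of 10 RPM for distinct sequences and 100 RPM for the start groups named by rank. With 1 library per group no count test was run. Shares have Wilson intervals, and ratios have exact conditional binomial intervals of the read ratio without the pseudocount (Python 3.11.15, scipy 1.17.1). The scripts were tested on simulated counts. TMM factors (edgeR 4.0.16, R 4.3.3) and a median of ratios served as other scalings. A count of 3 reads is 0.0868 RPM with Ago2 and 0.113 RPM with Ago1 at 30 d, and 0.222 RPM with Ago2 and 0.113 RPM with Ago1 at 3 d.

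Start groups were to be named by exact match to a miRNA table; none was used, so names come from background knowledge, and each was checked only for an annotated arm of that name in BDGP6. The group called miR-2a-3p also holds miR-2c-3p, which has the same first 20 nt. Strands of the same hairpin were not analysed here. Names were drawn from the 10 highest and 10 lowest start groups per comparison, the 10 most abundant per library, all held 2-fold more by Ago2 at both ages, the largest length differences and lists of known miRNA groups, of which only some are printed. Members and lists were chosen with earlier results of these data known.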

Additional observations from a re-analysis of the deposited data

Results flagged for a closer look

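In 6 U-start groups with a mean of at least 100 RPM the share of Ago2 reads differed by at least 2-fold between the ages. Their log2 age ratio with Ago1 had the opposite sign. These are 6 of 51 groups, a share near the 12.4% of start groups of any first base. Each group has 1 library, so the difference between the proteins was not tested. The log2 ratio of 30 d over 3 d was 1.50 with Ago2 and -0.10 with Ago1 for miR-14-3p, and 1.02 with Ago2 and -0.16 with Ago1 for let-7-5p. It was 1.19 with Ago2 and -0.21 with Ago1 for miR-970-3p, and 1.38 with Ago2 and -0.28 with Ago1 for miR-932-5p. For miR-263a-5p start +2 it was 1.06 with Ago2 and -0.22 with Ago1. miR-986-5p went the other way, with -1.18 with Ago2 and 0.28 with Ago1. In each the Ago1 value was within 2-fold. Scaling moves every Ago2 ratio of age by the same amount, by -0.27 with TMM and by -0.33 with the median of ratios. Under either, let-7-5p, miR-970-3p and miR-263a-5p start +2 no longer met this description, while miR-956-3p and miR-312-3p did, which gave 5 groups.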

How the results depend on the processing

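No paired analysis was possible because each group has 1 library, and for the same reason no replicate could be left out. Ago2 over Ago1 had a median below 0 under every setting tried, near 0 with no minimum, and its size depended on scaling: the median over all sequences moved by 0.96 at 30 d and 1.40 at 3 d with TMM. Changes in log2 ratios and counts under other scalings follow from the totals. The number of sequences passing and the share of all listed sequences past 2-fold also change with the setting. They are not given for the counts below, which therefore cannot be read against the shares given above. Depth limits ratios of sequences near the floor, most in the Ago2 library at 3 d. The alternatives for the difference of ratios, 2 of the scalings for the exceptions, and the scalings for age over start groups of 100 RPM, were chosen after seeing the data. The cause of the shifts below was not tested otherwise.

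Median log2 ratios of Ago2 over Ago1 at 30 d and 3 d were -3.35 and -3.46 with TMM, -2.77 and -3.02 when the totals left out the 5 most abundant sequences, -3.38 and -3.35 for the median of ratios, -2.67 and -2.66 with a pseudocount of 10 RPM, -2.34 and -2.62 with a minimum of 1 RPM, -0.13 and -0.20 with no minimum, and -3.45 and -3.64 over start groups. At 3 d the median was -4.92 with a minimum of 100 RPM and -4.63 with a pseudocount of 0.1 RPM. Members at least 2-fold higher and lower at 30 d numbered 11 and 88 with a minimum of 100 RPM, 56 and 287 with 1 RPM, 58 and 323 with no minimum, and 14 and 65 over start groups. At 3 d they numbered 10 and 84, 45 and 292, 48 and 322, and 16 and 68 in the same order. Without the 5 most abundant sequences 46 were higher at 30 d and 51 at 3 d.

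With Ago2, members at least 2-fold higher and lower at 30 d over 3 d numbered 7 and 1 with a minimum of 100 RPM, 45 and 17 with 1 RPM, 46 and 17 with no minimum, and 15 and 5 with a pseudocount of 10 RPM. Those higher numbered 9 over start groups and 14 in a window of 21 to 23 nt, and those lower 16 with TMM, 28 without the 5 most abundant sequences and 17 with the median of ratios. With a mean of 100 RPM, start groups higher and lower with Ago2 numbered 1 and 4 with TMM, without the 5 most abundant sequences, and for the median of ratios. The median was 0.051 without those sequences, 0.11 with the median of ratios and 0.041 with no minimum. With Ago1, those higher and lower numbered 11 and 9 with 100 RPM, 39 and 32 with 1 RPM and with no minimum, and 2 and 5 over start groups. With Ago1 13 were lower with a pseudocount of 10 RPM and 8 higher in the window of 21 to 23 nt. The exceptions numbered 7 with a minimum of 100 RPM, 7 at 4-fold, 19 with TMM or the median of ratios and 26 without the 5 most abundant sequences.

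The difference of ratios was at least 1 higher in 5 groups with the median of ratios and in 15 with a minimum of 10 RPM, and at least 1 lower in 4 with TMM, 5 with the median of ratios, 5 without the 5 most abundant sequences and 6 with a minimum of 10 RPM. Its median was 0.13 with TMM, -0.018 with the median of ratios, -0.012 without the 5 most abundant sequences and 0.13 with a minimum of 10 RPM.

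The U share, in the order Ago2 30 d, Ago1 30 d, Ago2 3 d and Ago1 3 d, was 28.9%, 74.0%, 37.0% and 75.7% of reads of 20 to 24 nt, 26.4%, 69.0%, 34.8% and 71.1% in the window of 21 to 23 nt, 54.4%, 75.9%, 66.0% and 78.9% without the most abundant group of another first base, and 16.6%, 72.0%, 20.1% and 74.0% without the most abundant U group. With repeated lines summed it was 26.7%, 73.3% and 75.05% in all but Ago2 at 3 d. Mean lengths in that order were 21.69, 21.74, 21.74 and 21.78 nt with each sequence weighted equally, and 22.11, 22.27, 22.27 and 22.33 nt without the most abundant U group. With lines summed they were 22.02, 22.25 and 22.31 nt in all but Ago2 at 3 d. Among the 80 ratios named by rank, 1 past 2-fold reversed: miR-184-3p at 3 d was at 0.046 without the 5 most abundant sequences, and at 30 d, where it was within 2-fold, at 0.034.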
